A study of Mus musculus with 12 samples.

Results

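The genes described here encode the sensors and effectors of inflammasomes, 10 genes chosen by name among the 19937 genes that the array table names singly: Nlrp1a, Nlrp1b, Nlrp1c-ps, Nlrp3, Aim2, Pycard, Casp1, Casp4, Il1b and Il18. All 10 had exactly 1 probe set carrying their symbol alone, so none depended on a choice between probe sets. Expression was measured on 12 single-colour arrays, each from the whole tumour of a different mouse. Of the tumours, 6 had grown in p62 KO hosts and 6 in WT hosts, all on the C57BL6 background, and all grew from the murine prostate carcinoma line TRAMP-C2Re3, of which 50000 cells were injected into the prostate and which were left to grow for 60 days. The injected cells carried their own Sqstm1, the gene for the autophagy receptor and signalling adaptor p62, so that p62 was missing only from the host cells within a tumour. The growth protocol in the labels also mentions p62/IL-6 DKO hosts, which were not analysed here. Age, sex and the deleted exons of Sqstm1 are not given in the sources used here.

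Inflammasomes are complexes that assemble in the cytosol after a sensor protein detects a pathogen, a toxin or cell damage. The sensor, often through the adaptor ASC that Pycard encodes, brings together caspase-1, which then cuts the precursors of the cytokines IL-1 beta and IL-18 and the pore-forming protein gasdermin D, so that the cytokines leave the cell and the cell may die by pyroptosis. Macrophages and other myeloid cells, which are common in tumours, are the best known site of this pathway. An array reads RNA and not the cutting of proteins, so none of the values below reports inflammasome activity.

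The Nlrp1 genes take up most of what follows because the probe set of Nlrp1c-ps was already known as the only one of the series to pass the test between hosts. Differences of the 3 Nlrp1 genes between hosts are therefore a description. In tumours of KO hosts all 3 were lower than in tumours of WT hosts, Nlrp1c-ps most. The other 7 members, from the sensor Nlrp3 to the cytokine Il18, did not pass the test between hosts. Their variation lay mainly among tumours of the same group, and there Casp1 and Casp4 moved together.

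Whole-series measures set the scale for these results. Correlations between arrays lay between 0.935 and 0.991, and the interquartile range of the log2 levels on an array was 2.26 in KO host 2, 2.15 in KO host 3, 2.59 in WT host 2 and 2.47 in WT host 5, against 2.70 to 2.95 on the other 8. Sqstm1 averaged 8.73 ± 0.39 in KO hosts and 8.89 ± 0.23 in WT hosts (SD, n = 6 each; difference -0.16, SE 0.17, adjusted p = 0.994), which does not check the host genotype, since the injected cells were not knocked out and the deleted exons are not given. Markers of a prostate epithelial tumour were read against the lower quartile of an array, which was 4.85 to 5.36. Of 9 epithelial markers, 1 had a mean below its lowest value, and of 3 prostate markers also 1. Keratin 8 (Krt8) stood at 7.79 to 8.65 in KO hosts and 7.76 to 8.30 in WT hosts. The low markers were Epcam, at 4.32 to 5.16 in KO hosts and 4.38 to 5.05 in WT hosts, and the prostate protein probasin (Pbsn), at 2.86 to 3.18 in KO hosts and 2.81 to 3.09 in WT hosts. The macrophage marker Cd68 reached 10.22 to 11.05 in KO hosts and 10.31 to 10.59 in WT hosts, and the NK cell receptor Ncr1, below that quartile, stood at 3.37 to 4.40 in KO hosts and 3.36 to 3.75 in WT hosts.

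The starts of the genes on which the results turn are shown first. RefSeq (GRCm38.p6) gives a window of 300 bases, 250 before the transcript start and 50 after it, for 9 of the 10 members, Nlrp1c-ps being the other. Nlrp1a and Nlrp1b are shown because they are neighbours whose levels ran the same way between hosts. Capitals mark the letters GAGGAA, a box of the ETS type that the myeloid factor PU.1 is known to bind. The Nlrp1a window is chr11:71144655-71144954 and that of Nlrp1b (the first of 2 entries) chr11:71230684-71230983, both on the minus strand and printed 5′ to 3′ along the gene.
Nlrp1a: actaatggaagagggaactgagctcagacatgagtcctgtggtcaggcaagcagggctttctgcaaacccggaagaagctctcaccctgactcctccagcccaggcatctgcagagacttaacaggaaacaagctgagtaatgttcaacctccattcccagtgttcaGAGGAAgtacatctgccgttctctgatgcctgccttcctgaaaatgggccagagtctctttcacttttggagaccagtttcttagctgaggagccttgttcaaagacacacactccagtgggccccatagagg
Nlrp1b: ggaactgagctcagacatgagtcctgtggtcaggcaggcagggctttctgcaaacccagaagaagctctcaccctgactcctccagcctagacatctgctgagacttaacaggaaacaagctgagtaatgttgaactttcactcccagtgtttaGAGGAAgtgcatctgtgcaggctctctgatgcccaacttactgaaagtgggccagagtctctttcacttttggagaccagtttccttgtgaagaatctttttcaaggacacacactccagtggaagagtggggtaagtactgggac
Casp1 and Casp4 are shown because they are adjacent and their levels moved together. The Casp1 window is chr9:5298267-5298566 and that of Casp4 (the first of 2 entries) chr9:5308599-5308898, both on the plus strand. Capitals mark TTCCTC, the same box read on the opposite strand, in Casp1, and matches to the NF-kB consensus in Casp4.
Casp1: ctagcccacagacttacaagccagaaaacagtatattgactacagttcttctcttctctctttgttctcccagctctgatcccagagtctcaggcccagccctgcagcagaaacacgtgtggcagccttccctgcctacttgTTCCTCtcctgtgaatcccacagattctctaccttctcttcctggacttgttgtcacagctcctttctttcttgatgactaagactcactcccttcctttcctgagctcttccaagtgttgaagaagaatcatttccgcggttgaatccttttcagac
Casp4: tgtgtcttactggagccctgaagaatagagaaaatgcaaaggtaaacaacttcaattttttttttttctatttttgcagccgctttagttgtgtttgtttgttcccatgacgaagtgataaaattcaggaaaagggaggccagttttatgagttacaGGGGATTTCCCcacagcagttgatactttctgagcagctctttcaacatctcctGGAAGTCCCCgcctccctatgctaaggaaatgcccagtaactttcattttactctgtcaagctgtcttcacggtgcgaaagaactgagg
Il1b is shown as the cytokine gene with the widest range between tumours, from chr2:129371090-129371389 on the minus strand, with its TATAAA box in capitals.
Il1b: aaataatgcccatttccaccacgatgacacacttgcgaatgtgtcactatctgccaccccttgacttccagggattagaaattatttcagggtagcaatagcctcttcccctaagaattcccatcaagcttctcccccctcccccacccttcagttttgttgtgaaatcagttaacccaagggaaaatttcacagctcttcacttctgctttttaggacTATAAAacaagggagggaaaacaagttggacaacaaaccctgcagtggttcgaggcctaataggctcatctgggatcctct

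The windows of Nlrp1a and Nlrp1b were nearly the same text. They were identical at 253 of 286 aligned bases, or 88.5%, and each held GAGGAA in the same stretch, at 83 bases before the start in Nlrp1a and 96 in Nlrp1b. No other pair among the 9 windows exceeded 66.4%, and Casp1 and Casp4 shared 62.3%. GAGGAA on either strand was in the first entry of 6 of the 9 members and in 28.3% of all 32851 mouse windows of this length. The NF-kB consensus was in 1 of 9, Casp4, with a pair of overlapping matches at 93 and 92 bases before the start and a separate match at 39, and in 8.46% of all windows. TATAAA was in 2 of 9, Il1b at 31 bases before the start and Il18 on the opposite strand at 175, and in 13.6% of all. TGANTCA, the AP-1 site, was in 0 of 9 and 7.81% of all, and the interferon response core in 0 of 9 and 3.44% of all, which says only that these letters are not in these windows. All motifs were searched on both strands.

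Among the sensors, Nlrp1c-ps is annotated as a transcribed pseudogene of the Nlrp1 family. Its log2 level was 5.39, 5.75, 5.40, 5.46, 4.99 and 5.01 in KO hosts 1 to 6, against 7.40, 6.18, 7.53, 6.85, 7.09 and 7.04 in WT hosts 1 to 6. Every tumour of a KO host was below every tumour of a WT host, with 0.43 between the highest KO host, number 2, and the lowest WT host, also number 2. The means were 5.33 ± 0.29 in KO hosts and 7.01 ± 0.48 in WT hosts (SD, n = 6 each), a difference of -1.68 (SE 0.21, 95% interval -2.12 to -1.24) or 3.20-fold (2.36 to 4.35). KO hosts 3, 5 and 6 lay within 0.2 of the lower quartile of their arrays, near the low end of the scale. This was the single probe set called by limma (adjusted p = 0.0378), 0.00355% of those tested. Non-overlapping groups with KO hosts lower occurred in 0.0745% of all probe sets. The call was lost in 10 of 12 fits that left out 1 tumour, all but those without KO host 2 (adjusted p = 0.0456) and WT host 2 (0.00143), at adjusted p of 0.0846 to 0.173 and with differences within -1.85 to -1.58 over all 12.

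Nlrp1a encodes a sensor that can trigger caspase-1 and pyroptosis in blood cell precursors of mice. It stood at 4.39, 5.09, 5.21, 4.54, 4.87 and 4.36 in KO hosts 1 to 6, against 5.43, 5.07, 5.69, 5.27, 5.50 and 5.51 in WT hosts 1 to 6. All 6 tumours of KO hosts, but only 1 of WT hosts, were below the lower quartile of their own array, so that the lower levels are near the floor of the scale. The groups overlapped by way of KO hosts 2 and 3 and WT host 2, and the means of 4.74 ± 0.37 in KO hosts and 5.41 ± 0.22 in WT hosts (SD, n = 6 each) differed by -0.67 (SE 0.16, 95% interval -1.02 to -0.32, adjusted p = 0.994).

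Nlrp1b encodes the sensor that anthrax lethal factor and other proteases activate by cutting it, depending on the mouse strain. It stood at 5.54, 5.50, 5.61, 5.61, 5.35 and 5.62 in KO hosts 1 to 6, against 6.07, 5.56, 5.85, 5.83, 5.97 and 5.96 in WT hosts 1 to 6. WT host 2 lay within the range of KO hosts, and the other 5 WT hosts lay above it. The means were 5.54 ± 0.10 in KO hosts and 5.87 ± 0.18 in WT hosts (SD, n = 6 each), a difference of -0.33 (SE 0.10, 95% interval -0.54 to -0.13, adjusted p = 0.994). WT host 2 was the lowest of the WT hosts for all 3 Nlrp1 genes. The family's copies resemble each other, and whether a probe set also picked up RNA of another copy was not tested.

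**Figure D1:**
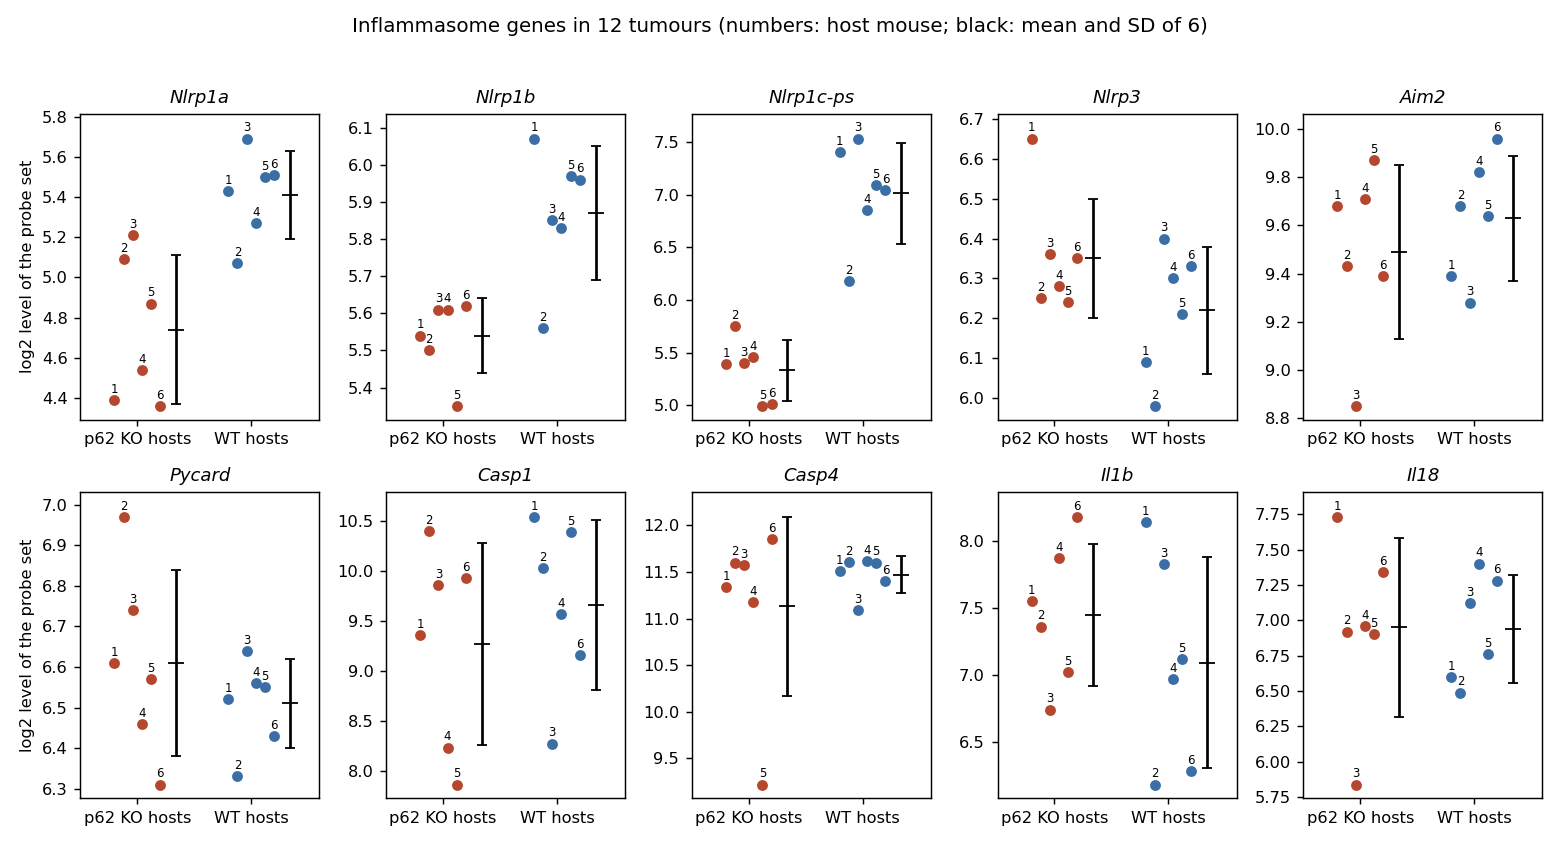
Log2 level of each of the 10 genes in each tumour, KO hosts left and WT hosts right in every panel, with 1 point per tumour and the mean and SD of 6 as the bar. For Nlrp1c-ps the KO hosts, at 4.99 to 5.75, lie below the WT hosts, at 6.18 to 7.53, while the other genes overlap between groups and Casp4 has 1 low KO tumour at 9.22.

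The 3 Nlrp1 genes are consecutive among the measured genes of chromosome 11 in RefSeq's order, with 367 measured genes between Nlrp1a and Sqstm1, the gene that was deleted in the hosts, on the same chromosome. The measured genes around the block and toward Sqstm1 were counted as well. Of the 20 measured genes on each side of the Nlrp1 block, 15 were higher and 25 lower in KO hosts, with a median of -0.03 and 0 of 40 at an unadjusted p under 0.05, a threshold that 2.39% of all probe sets passed. The gene next to Nlrp1a, 6330403K07Rik, differed by -0.34 (SE 0.18), and the gene next to Nlrp1c-ps on the other side, 9230020A06Rik, by 0.04 (SE 0.11), both named after their values were seen. Of the 367 genes between Sqstm1 and Nlrp1a, 233 were higher and 134 lower (median 0.04), with 4 higher and 2 lower at an unadjusted p under 0.05. In 1 of the 367 the groups did not overlap, against 41 of all 28192 probe sets in either direction. Of the 20 on each side of Sqstm1, 27 were higher and 13 lower (median 0.05), with 1 at an unadjusted p under 0.05. Over all 28192 probe sets 57.2% were higher and 42.8% lower, with a median of 0.02. Across the 1563 measured genes of chromosome 11, 6 or 0.384% had a difference below -0.5, among them Nlrp1a and Nlrp1c-ps, against 63 or 0.317% of the 19854 measured genes that RefSeq places on any chromosome.

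**Figure D2:**
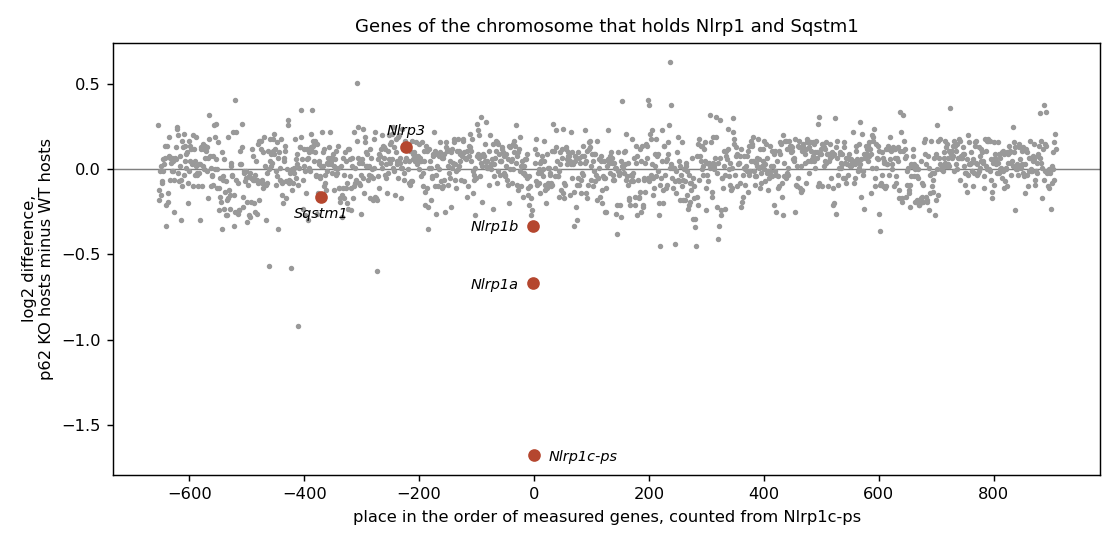
Log2 difference, KO hosts minus WT hosts, of the 1563 measured genes of chromosome 11, with their place in gene order counted from Nlrp1c-ps on the horizontal axis. Nlrp1c-ps (-1.68) and Nlrp1a (-0.67) stand below the surrounding genes, and Nlrp1b at -0.33, Sqstm1 at -0.16 and Nlrp3 at 0.13 lie within or near the band of the others.

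Nlrp3, the sensor of potassium loss and many forms of cell damage, had a level of 6.24 at the lowest, 6.31 at the median and 6.65 at the highest in KO hosts, against 5.98, 6.26 and 6.40 in WT hosts. The high value was KO host 1, where the next was 6.36. The groups overlapped, and the means of 6.35 ± 0.15 in KO hosts and 6.22 ± 0.16 in WT hosts (SD, n = 6 each) differed by 0.13 (SE 0.10, 95% interval -0.08 to 0.35, adjusted p = 0.994). Nlrp3 is also on chromosome 11, between Sqstm1 and the Nlrp1 genes. Aim2, the sensor of DNA in the cytosol, ranged over 8.85, 9.55 and 9.87 (lowest, median, highest) in KO hosts and 9.28, 9.66 and 9.96 in WT hosts. KO host 3 alone lay below all WT hosts, and the difference was -0.14 (SE 0.17, 95% interval -0.50 to 0.22, adjusted p = 0.994), turning to 0.03 without KO hosts 2 and 3.

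The adaptor gene Pycard, whose product ASC links sensors to caspase-1, had levels of 6.31, 6.59 and 6.97 (lowest, median, highest) in KO hosts and 6.33, 6.53 and 6.64 in WT hosts. KO host 2 was the highest. The difference was 0.10 (SE 0.11, 95% interval -0.13 to 0.34, adjusted p = 0.994), or -0.02 with KO hosts 2 and 3 left out.

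Casp1, the caspase that processes both cytokines, was the most variable member. It stood at 9.36, 10.40, 9.86, 8.23, 7.86 and 9.93 in KO hosts 1 to 6, against 10.54, 10.03, 8.27, 9.57, 10.39 and 9.16 in WT hosts 1 to 6. The 12 tumours covered 2.68 log2 units or 6.41-fold, with KO hosts 4 and 5 and WT host 3 at the low end. Only 0.912% of all probe sets had a larger spread within groups. The means of 9.27 ± 1.01 in KO hosts and 9.66 ± 0.85 in WT hosts (SD, n = 6 each) differed by -0.38 (SE 0.47, 95% interval -1.39 to 0.62, adjusted p = 0.994), an interval too wide to exclude a change of more than 1 unit downward.

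Casp4 encodes the mouse protein also known as caspase-11, which binds lipopolysaccharide in the cytosol and cuts gasdermin D. It stood at 11.34, 11.60, 11.57, 11.18, 9.22 and 11.85 in KO hosts 1 to 6, against 11.51, 11.61, 11.09, 11.62, 11.60 and 11.40 in WT hosts 1 to 6. KO host 5 was far below the rest, and the other 11 tumours lay between 11.09 and 11.85. The means were 11.13 ± 0.96 in KO hosts and 11.47 ± 0.20 in WT hosts (SD, n = 6 each), a difference of -0.34 (SE 0.35, 95% interval -1.10 to 0.41, adjusted p = 0.994). Without KO host 5 the KO mean was 11.51 ± 0.26 (SD, n = 5) and the difference turned to 0.04 (adjusted p = 0.959).

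The genes beside Casp4 were examined after the value of KO host 5 had been seen, so the following is a description of that tumour. In RefSeq's order Casp1, Casp4, Casp12, Pdgfd and Ddi1 follow each other on chromosome 9, and KO host 5 was the lowest of the 12 tumours for all 5. Casp12, a caspase of the same inflammatory group, stood at 8.95 in KO host 5, against a median of 11.44 and a highest value of 11.73 in the other 11. Pdgfd, a growth factor of the PDGF family, stood at 8.51 in KO host 5, against 9.57 to 11.35, and Ddi1 at 6.10, against 7.27 to 9.94. Relative to the median of the other 11 tumours, these 5 genes stood between -2.72 (Ddi1) and -1.99 (Casp1) log2 units in KO host 5.

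On one side of the 5 genes, Gria4 stood at -0.05 relative to the median of the other 11, and on the other side Dync2h1 stood at 0.22. Among 35 measured genes, the 9 before Casp4 and the 25 after it, 6 were at least 1.5 lower in KO host 5 than that median and 22 were within 0.5 of it. The sixth was Cep126, farther along the chromosome, at 7.93 in KO host 5, against 10.21 to 11.23 in the other 11. The gene after it, 1700128F08Rik, stood at -1.11 and was also the lowest of the 12 tumours there. Between Ddi1 and Cep126 the values were mixed, with Yap1 at 0.15 and Birc2 at -0.04. Among matrix protease genes, the lowest were Mmp3 at -0.97, Mmp1b at -0.91, Mmp1a at -0.71 (the lowest of the 12) and Mmp7 at -0.54. The others were Mmp8 at -0.42, Mmp20 at -0.38, Mmp13 at -0.27, Mmp10 level with the median, Mmp27 at 0.14 and Mmp12 at 0.5. In the other 11 tumours Mmp1a ranged from 5.09 to 9.09. Over all tested probe sets, 38 or 0.135% were at least 1.5 lower in KO host 5. In the same 35 genes WT host 3 had 3 this low, KO host 4 and WT host 4 had 1 each, and the other 8 tumours had 0. The files hold RNA levels alone.

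**Figure D3:**
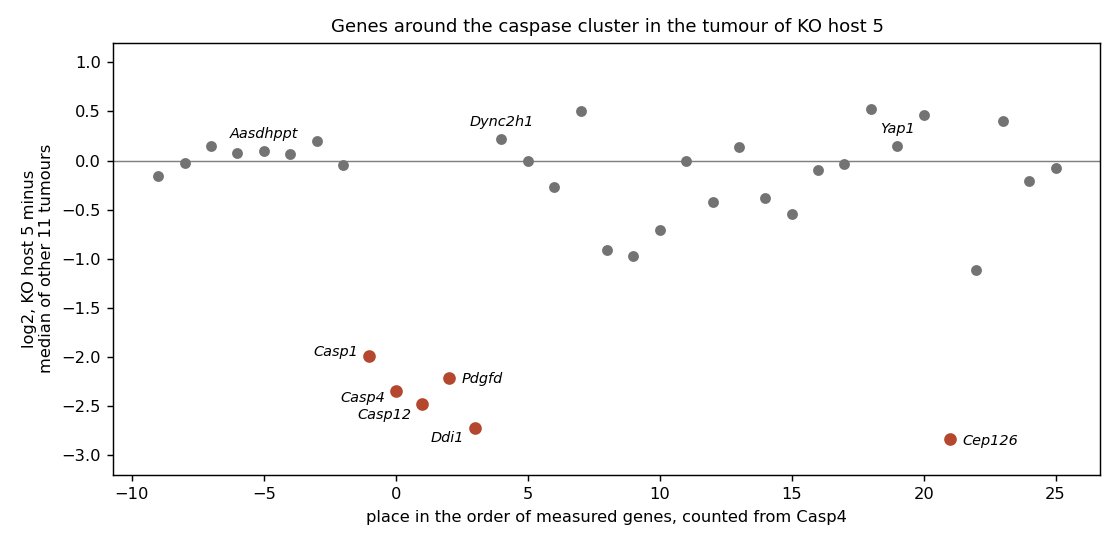
Log2 level in KO host 5 minus the median of the other 11 tumours for 35 measured genes around Casp4 on chromosome 9, in gene order counted from Casp4. The adjacent genes Casp1, Casp4, Casp12, Pdgfd and Ddi1 and the separate gene Cep126 lie at -1.99 to -2.84, and the genes on either side of the adjacent 5, Gria4 at -0.05 and Dync2h1 at 0.22, lie near 0.

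The cytokine genes varied several-fold without separating the groups. Il1b, the precursor of IL-1 beta, stood at 7.55, 7.36, 6.74, 7.87, 7.02 and 8.18 in KO hosts 1 to 6, against 8.14, 6.18, 7.83, 6.97, 7.12 and 6.28 in WT hosts 1 to 6. KO host 6 and WT host 1 were the highest and WT hosts 2 and 6 the lowest. The means of 7.45 ± 0.53 in KO hosts and 7.09 ± 0.79 in WT hosts (SD, n = 6 each) differed by 0.37 (SE 0.34, 95% interval -0.37 to 1.10, adjusted p = 0.994). Il18, the precursor of IL-18, ranged over 5.84, 6.94 and 7.73 (lowest, median, highest) in KO hosts and 6.49, 6.94 and 7.40 in WT hosts. KO hosts held both its extremes, number 1 at 7.73 and number 3 at 5.84. Its means of 6.95 ± 0.63 in KO hosts and 6.94 ± 0.38 in WT hosts (SD, n = 6 each) differed by 0.00474 (SE 0.27, 95% interval -0.57 to 0.58, adjusted p = 0.999), with a direction that turned under quantile normalization (-0.05), under a common median (-0.03) and without KO host 1 or 6 or WT host 1, 2 or 5 (-0.15 to -0.03).

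**Figure D4:**
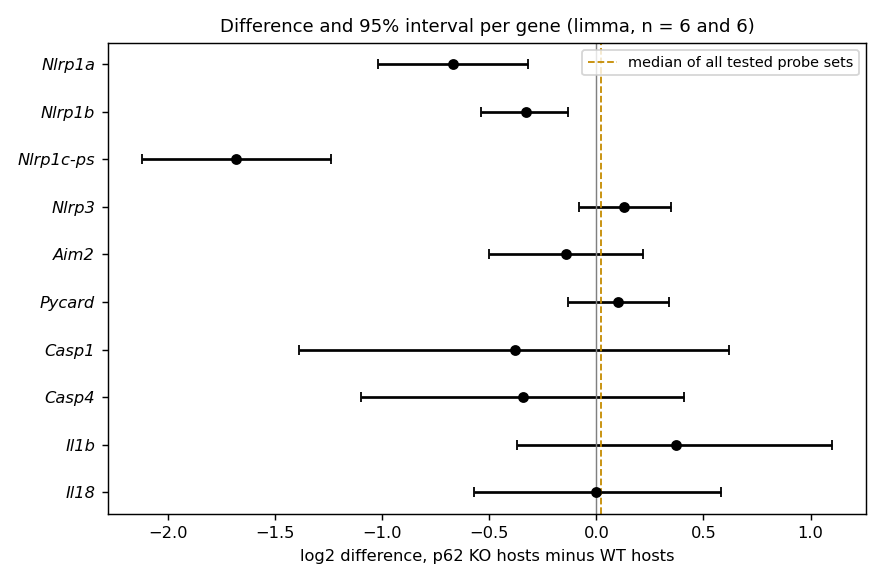
Log2 difference, KO hosts minus WT hosts, for each of the 10 genes with its 95% interval, from the fit over all probe sets. The intervals of Nlrp1c-ps (-2.12 to -1.24), Nlrp1a (-1.02 to -0.32) and Nlrp1b (-0.54 to -0.13) lie below 0, those of the other 7 include 0, and Casp1 has the widest, -1.39 to 0.62. The intervals are not adjusted for the 28192 probe sets tested, and of the 10 genes only Nlrp1c-ps was called after adjustment. The Nlrp1 genes were taken up with that call already known.

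Counted together, 4 members were higher and 6 lower in KO hosts, with a median of -0.24, which was -0.04 without KO host 5. The 7 members outside the Nlrp1 genes were split into 4 higher and 3 lower, at -0.38 to 0.37, with 0 called at an adjusted p under 0.05 and 0 at an unadjusted p under 0.05, where 2.39% of all probe sets passed the unadjusted threshold. In whole-tumour RNA, fewer cells of a type and less RNA per cell cannot be told apart. Macrophage markers were higher in KO hosts for 10 of 12 genes (median 0.15; list means of 8.77 to 9.48 in KO hosts and 8.76 to 9.35 in WT hosts), none at an unadjusted p under 0.05. Neutrophil markers were higher for 11 of 12 (median 0.18; list means of 5.46 to 6.00 in KO hosts and 5.31 to 5.64 in WT hosts), 4 of them at an unadjusted p under 0.05 and 0 called after adjustment. T and NK cell markers were higher for 6 and lower for 4 of 10 (5.22 to 5.60 in KO hosts and 5.19 to 5.68 in WT hosts), with 0 at an unadjusted p under 0.05. B cell markers were higher for 5 of 5 (5.26 to 5.73 in KO hosts and 5.09 to 5.44 in WT hosts), 1 of them at an unadjusted p under 0.05. That was Cd79a, a chain of the B cell receptor complex, at 5.05 ± 0.24 in KO hosts and 4.42 ± 0.20 in WT hosts (SD, n = 6 each; 0.63, SE 0.13, adjusted p = 0.994 by limma). Its WT levels, 4.24 to 4.73, lay below the lowest lower quartile of an array, 4.85, and its KO levels were 4.58 to 5.24. Over all probe sets 57.2% were higher in KO hosts, and 12817 of 28192 without KO hosts 2 and 3. Those tumours, whose arrays had the narrowest spread, had the highest neutrophil means (6.00 and 5.94) and B cell means (5.66 and 5.73). With the macrophage marker mean as a covariate, Nlrp1c-ps differed by -1.71 (adjusted p = 0.0348), Casp1 by -0.13, Il1b by 0.21 and Il18 by -0.16. The part of the other cell types in the levels of the members was not tested.

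The members were next compared with each other over the 12 tumours, after each gene was centred on its own group mean so that the difference between hosts took no part. Of 45 pairs, 1 passed a permutation test with adjustment over the 45. Casp1 and Casp4 had a Pearson r of 0.71 (permutation p = 0.00067, adjusted p = 0.0301, n = 12) and a Spearman rho of 0.64 (permutation p = 0.0173, adjusted p = 0.299, n = 12). The sign was the same within KO hosts (r = 0.80) and within WT hosts (r = 0.84), and r was again 0.71 without the tumours farthest from the median of Casp1, KO host 5 and WT host 3. KO hosts 4 and 5 and WT host 3 were the 3 lowest tumours for both genes. The call was lost without KO host 1, 4 or 5 or WT host 3 or 6, at adjusted p of 0.0929 to 0.182 and r of 0.72 to 0.82. Of all probe sets, 3.86% had an r with Casp1 at least this high. With Casp12, the next gene, Casp4 had an r of 0.96, or 0.55 without KO host 5, and Casp1 0.66, or 0.64 without it.

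The other 44 pairs did not pass. The adaptor gene Pycard had an r of 0.77 with Nlrp1a (permutation p = 0.0092, adjusted p = 0.138, n = 12) with a rho of 0.74 (permutation p = 0.0151, adjusted p = 0.299, n = 12), and 0.65 with Nlrp1c-ps (permutation p = 0.00622, adjusted p = 0.138, n = 12) with a rho of 0.66 (permutation p = 0.0266, adjusted p = 0.299, n = 12). Over the 8 arrays with the wider interquartile ranges these r were 0.41 and 0.37. The Nlrp1 genes were uneven among themselves. Nlrp1a with Nlrp1c-ps had an r of 0.58 (rho 0.46), Nlrp1b with Nlrp1c-ps 0.66 (rho 0.34), which fell to -0.09 without KO host 5 and WT host 2, and Nlrp1a with Nlrp1b 0.17 (rho -0.12). Il18 had an r of 0.61 with Nlrp3 (rho 0.69) and of 0.61 with Aim2 (rho 0.36), at adjusted p of 0.421 and 0.46 by the permutation test. Il1b and Il18, the substrates of the same caspase, had an r of 0.29 with each other, and with Casp1 of 0.02 for Il1b and -0.28 for Il18.

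**Figure D5:**
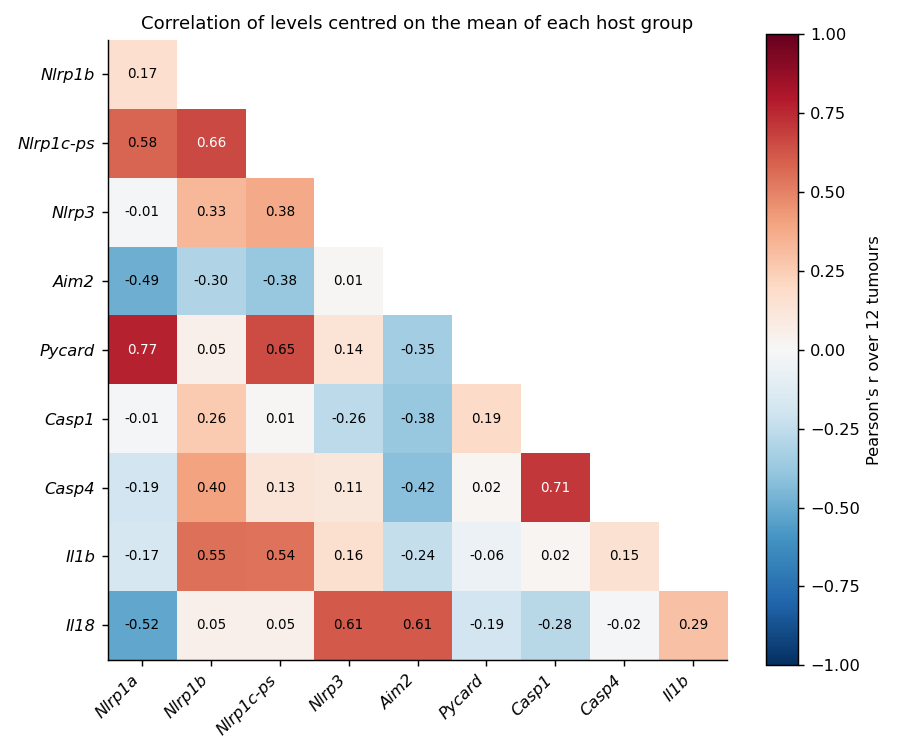
Pearson r between the 10 genes over 12 tumours after centring on group means, as a colour from negative to positive. The pair Casp1 and Casp4, at 0.71, is the single one that passed, Nlrp1a with Pycard is higher at 0.77 without passing, and Casp1 is near 0 with Il1b (0.02).

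Members also moved with the marker lists and with the spread of the array, given here without a test because all share the same 12 arrays. Casp1 had an r of 0.81 with the mean of the neutrophil markers, -0.59 with that of the macrophage markers and -0.66 with the interquartile range. Casp4 had 0.67 with the neutrophil markers. Il18 ran the other way, at 0.72 with macrophage markers, 0.76 with fibroblast markers, -0.79 with epithelial markers and 0.69 with the interquartile range. Il1b had 0.53 with macrophage markers, 0.54 with fibroblast markers, -0.56 with epithelial markers and 0.43 with the interquartile range. Aim2 had -0.64 with neutrophil markers, -0.70 with prostate markers and 0.52 with the interquartile range. Nlrp1c-ps had 0.67 with T and NK cell markers and -0.12 with the interquartile range, and Pycard 0.76 with B cell markers and -0.62 with the interquartile range.

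Over all genes with 1 symbol, the 4 most like Nlrp1c-ps by centred r over the 12 tumours were Cntd1 (0.92), Nlrc5 (0.89), Slc25a38 (0.89) and Neurl3 (0.88). Nlrc5 is the NLR protein that activates MHC class I genes, and its own difference between hosts was 0.11 (SE 0.23). For Nlrp1a they were Gzmf (0.96), which encodes a granzyme, 1700052K11Rik (0.92), Slfn5os (0.92) and Lsm7 (0.90). For Casp1 they were Gpr55 (0.93), Sox21, Orm1 and Garem2 (0.90 each). For Il1b they were Tarbp2 (0.89), Bcdin3d (0.86), Gm9831 (0.84) and 1700084J12Rik (0.84). None of these lists held another member. These genes were picked as the highest r among all genes, and whether such r exceed those of a chance pick was not tested.

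The rest of the pathway gave no call between hosts at an adjusted p under 0.05, and 0 genes at an unadjusted p under 0.05, in any of the 6 lists, where 2.39% of all probe sets passed the unadjusted threshold. Of 12 other sensors measured, 6 were higher and 6 lower (median -0.01). Nlrc4, which signals for bacterial flagellin and secretion systems, differed by -0.03 (SE 0.14), and its partners Naip2 and Naip5 by 0.04 (SE 0.17) and -0.15 (SE 0.26). The largest difference among them was that of Ifi203, a relative of Aim2, at 9.16 ± 0.51 in KO hosts and 9.60 ± 0.37 in WT hosts (SD, n = 6 each; -0.44, SE 0.23). Of 11 NLR genes outside inflammasomes, 7 were higher and 4 lower (median 0.02), with Nod1 at 0.02 (SE 0.11) and Nod2, a receptor of bacterial wall fragments, at -0.02 (SE 0.11).

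Of 10 further caspases, gasdermins and genes of lytic death, 7 were higher and 3 lower (median 0.09). Gsdmd, the pore former cut by caspase-1 and caspase-11, stood at 7.14 ± 0.28 in KO hosts and 7.01 ± 0.09 in WT hosts (SD, n = 6 each; 0.14, SE 0.12). Gsdme differed by 0.04 (SE 0.10), Casp8 by -0.13 (SE 0.15) and the necroptosis kinase Ripk3 by 0.19 (SE 0.11). Of 23 regulators, 8 were higher and 15 lower (median -0.08). They included Nek7, the kinase that binds Nlrp3, at -0.21 (SE 0.13), the ATP channel P2rx7 at 0.16 (SE 0.16), and Dpp8 and Dpp9, whose proteases hold Nlrp1 inactive, at -0.16 (SE 0.21) and 0.03 (SE 0.12). Trim30a, at -0.42 (SE 0.23), had the smallest p of that list without passing.

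Of 14 genes of the IL-1 family and its receptors, 9 were higher and 5 lower (median 0.08). Il1rn, which encodes the antagonist of the IL-1 receptor, stood at 7.34 ± 0.26 in KO hosts and 7.06 ± 0.27 in WT hosts (SD, n = 6 each; 0.28, SE 0.14). Il1a differed by 0.25 (SE 0.15), the decoy receptor Il1r2 by 0.24 (SE 0.19) and Il18bp, the soluble inhibitor of IL-18, by -0.04 (SE 0.09). Of 19 genes of the receptors and adaptors that prime inflammasome genes, 7 were higher and 12 lower (median -0.04), with Tlr4, the receptor of lipopolysaccharide, at -0.03 (SE 0.17), Tlr2 at -0.10 (SE 0.17) and their adaptor Myd88 at -0.08 (SE 0.17).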

How the data were processed

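The table deposited by the authors holds log2 intensities of probe sets, made with RMA per the submitters' processing notes (version and genome build not given in the sources used here). Per the labels, total RNA was extracted with Tri-Zol and amplified with the Ovation Pico WTA System. Of 34760 rows, 6568 at the low end of the identifiers, which carry no gene, were taken as controls, and 28192 were tested. limma 3.58.1 (R 4.3.3) compared KO with WT hosts (lmFit, eBayes, two-sided, no covariate, Benjamini-Hochberg over all tested, threshold 0.05), checked on simulated data. Differences are KO minus WT. The number of arrays limits the precision. Probe sets were not called present or absent, and levels of members were not ranked against each other. Correlations between members used group-centred values and 100000 permutations within groups, adjusted over 45 pairs. The labels put each tumour in a separate mouse. The labels do not say that mouse numbers pair the tumours, and the main fit did not use the numbers. Names and gene order came from the platform annotation and RefSeq (GRCm38.p6), promoter windows from RefSeq. Of each pathway list, preset anchors and the 2 genes with the smallest p were eligible to be named, and for 4 members the 4 genes most like each. Members and lists were chosen with earlier results of these data known. Alternatives were other scaling, filters, probe set choice, weights, covariates, the mouse number as a block and tumours left out. Plots were drawn with matplotlib 3.10.9.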

Additional observations from a re-analysis of the deposited data

Results flagged for a closer look

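Each of the 10 genes was scanned in each host group for a tumour standing apart from the other 5, 20 scans in all. For independent, normally distributed values chance flags about 1 in 20. The share of all probe sets that the same scan would flag was not counted. In the first of 2 scans with a tumour that stood apart, Casp4 in KO host 5 was at 9.22, where the other KO hosts lay between 11.18 and 11.85. In the second, Nlrp3 in KO host 1 was at 6.65, where the next KO host was at 6.36.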

How the results depend on the processing

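Nlrp1c-ps kept its direction under every alternative that measured it, while its call did not hold everywhere. Nlrp1a, at -0.67, was -0.81 with array weights, -0.87 without KO hosts 2 and 3, -0.94 without these and WT hosts 2 and 5, and -0.76 to -0.59 without 1 tumour. The Nlrp1c-ps difference of -1.68 had an adjusted p of 0.0656 when all rows were tested (more rows to adjust over). Its adjusted p was 0.999 with the mouse number as a replicate block. Correlations of same-numbered tumours, computed on each probe set's deviation from its host-group mean, ran from -0.55 to 0.37. The labels do not say that numbers pair the mice. Without KO hosts 2 and 3 the Nlrp1c-ps difference was -1.80 (adjusted p = 0.108), and in fits without 1 tumour -1.85 to -1.58. Probe sets called lower then numbered 0 with the block, with all rows, without KO hosts 2 and 3 and with the filter on dim probe sets, which removed all 3 Nlrp1 genes, and 0 to 1 without 1 tumour. At an unadjusted p under 0.05, 313 were lower and 362 higher. The differences of uncalled members turned in direction as follows. Aim2 was at 0.02 with array weights, 0.03 without KO hosts 2 and 3 and 0.05 without these and WT hosts 2 and 5, and Pycard at -0.00247, -0.02 and -0.05 under the same settings. Il18 was at -0.03 with a common median, -0.05 with quantile normalization and -0.16 with the macrophage marker mean as a covariate, and at -0.15 to 0.23 without 1 tumour. Without 1 tumour, Casp4 ran from -0.49 to 0.04, Casp1 from -0.66 to -0.10 and Il1b from 0.19 to 0.58. Casp1 was -0.91 with array weights. The median of the members left by the dim filter was 0.00474. The median of the genes between Sqstm1 and Nlrp1 was -0.00467 with the dim filter. The count of 1 pair called became 0 by Spearman, with the interquartile range removed, in KO or WT hosts alone, without 4 arrays and with quantile normalization, and 0 to 2 without 1 tumour. The r of Casp1 with Casp4 in these was 0.64, 0.69, 0.80, 0.84, 0.68 and 0.68. In KO hosts alone, in WT hosts alone and without 4 arrays, the tumours allow too few orders within groups for a lone pair to pass after adjustment. The counts of 0 in those settings therefore cannot show whether the call holds. Causes were not tested. Low signal limits Nlrp1a, whose KO values all lie below the lower quartile of their arrays, and Nlrp1c-ps, near it in KO hosts 3, 5 and 6.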
